A study of Danio rerio with 14 samples.

Results

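Untreated zebrafish embryos at 9 hpf (hours post fertilization) were compared with untreated embryos at 6 hpf. The comparison used 4 of the 14 Affymetrix Zebrafish arrays of the study, the 2 arrays labelled untreated 9 hpf and the 2 labelled untreated 6 hpf, and all 15502 probe sets that are not array controls. Embryos were of the Ekkwill (EK) strain, came from natural matings and were used whole, with total RNA extracted in Trizol. The study also has untreated embryos of 4 hpf, embryos kept in retinoic acid (RA) from the 2-cell stage until they were collected at 4, 6 and 9 hpf, and the zebrafish cell line ZF4. The 4 arrays of RA-treated embryos of 6 and 9 hpf served as a second comparison of the same stages. Untreated 6 hpf embryos are grouped here by their label, since the methods list untreated embryos for this array type only at 9 hpf. Nothing in the labels ties a replicate to a clutch of its own, so p-values measure only the spread between these samples.

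A zebrafish embryo at 6 hpf is an early gastrula. The cells at its margin turn inward to form mesoderm and endoderm under Nodal, Fgf and Wnt signals, and the dorsal organizer is active. At 9 hpf gastrulation is nearly over, the body axis has lengthened, and the neural plate is being divided into forebrain, midbrain, hindbrain and spinal cord. RNA laid down by the mother is lost over this period while the embryo's own genome takes over. A whole embryo also holds the enveloping layer that covers it, the yolk syncytial layer and a few primordial germ cells.

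Values are log2 expression values per probe set, and a change is the mean at 9 hpf minus the mean at 6 hpf with its standard error (SE). Pairs of values give array 1 and then array 2. A probe set was called when its adjusted p in limma (Benjamini-Hochberg) was under 0.05, and adjusted p-values below are of this test. A background level of 5.3 was set from the array's tag controls, designed to bind no transcript of the fish. Where both arrays of a stage lay at or below it, the fold is given as "at least", measured from that level, and where both stages did, no fold is given. In whole embryos fewer cells of a type cannot be told apart from less RNA in each cell.

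Both stages had the genes of a gastrula. The presomitic mesoderm gene msgn1 stood at 10.98 and 10.84 at 6 hpf and at 11.87 and 11.79 at 9 hpf. The organizer gene gsc stood at 9.62 and 9.77 and then at 9.29 and 9.78, and the enveloping layer keratin gene krt4 at 12.36 and 12.27 and then at 12.54 and 12.18. None of these 3 genes, named for this check, was called by limma, and their unadjusted p-values were above 0.05 except that of msgn1. The neural crest gene sox10 and the notochord collagen gene col2a1a were at or below background on all 4 arrays, as were 24 of 42 hox genes. Across probe sets the 2 replicates correlated at 0.937 at 6 hpf and at 0.929 at 9 hpf, and 3 of the 4 arrays were nearer to an RA-treated array of their stage than to their own replicate: 9 hpf array 1 (0.959), 9 hpf array 2 (0.944) and 6 hpf array 2 (0.944). The 9 hpf arrays differed in genes of the yolk syncytial layer and lipoproteins. The median change of these 26 genes was -0.03, but 0.91 without 9 hpf array 2 and -1.2 without 9 hpf array 1. For 25 enveloping layer genes it was 0.02, and 0.37 and -0.23 with the same arrays left out. The source of this difference between replicates was not tested. Array medians lay between 6.13 and 6.23. The median of the tag controls was 1.83 and 1.94 at 6 hpf and 3.27 and 3.91 at 9 hpf, and the GAPDH 3' control exceeded the 5' control by -0.21 and 0.29 at 6 hpf and by -0.87 and -0.74 at 9 hpf. Both measures moved with the stage in untreated embryos, while the tag controls of RA-treated embryos were at 3.56 and 3.39 at 6 hpf and at 3.79 and 2.91 at 9 hpf, and their GAPDH differences were 0.64 and -0.33 and then -1.09 and -0.2. The actin control acta1 had 3' minus 5' values of -0.35 and -0.13 at 6 hpf and of -0.26 and -0.16 at 9 hpf in untreated embryos. The part of these measures in the results was not tested.

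Between 6 and 9 hpf 1567 probe sets were called (10.1%), 677 higher (4.37%) and 890 lower (5.74%). An unadjusted p under 0.05 was reached by 3624 (23.4%), and the change was above 0 for 7830 (50.5%). The median change was 1.58 among those called higher and -1.61 among those called lower, against 0.01 over all probe sets. All 4 arrays were above background for 451 of the 677 and for 607 of the 890. For 131 and 147 of them a stage lay wholly at or below background with the other above it, for 54 and 101 a stage was split by the background level, and 41 and 35 had both stages at or below it. By the probe set that represents each gene, 457 genes rose and 605 fell, of 8793. Shares of gene lists below count genes in this way, while the shares of all probe sets beside them count every probe set. Small gaps between the 2 kinds of share are therefore not like for like. Leaving out any 1 of the 4 arrays left 185 to 288 higher and 313 to 629 lower, and a fit without an intensity trend called 448 higher.

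**Figure D1:**
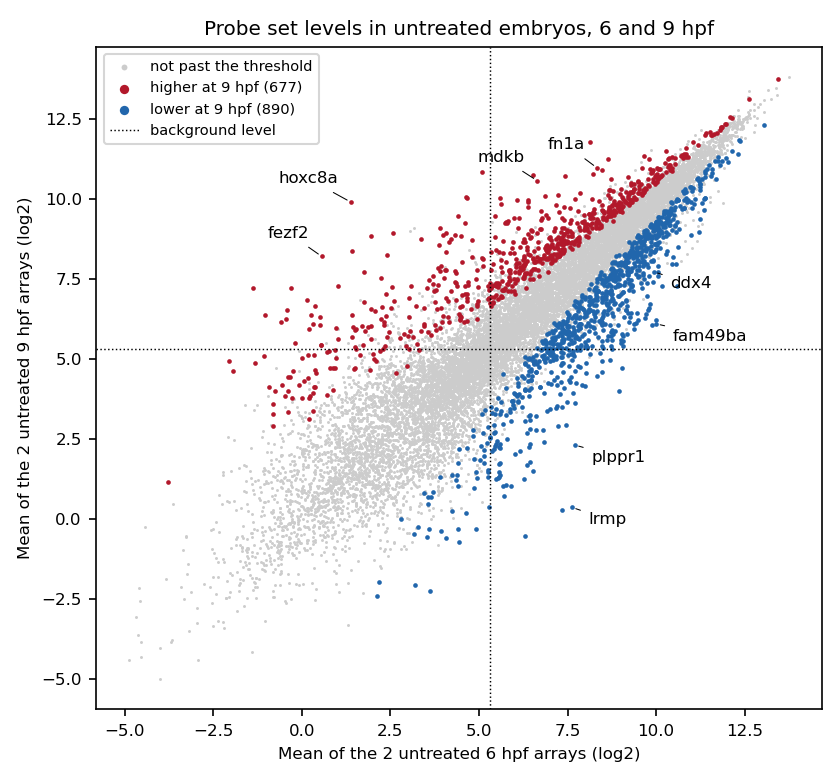
Each point is a probe set, with the mean log2 value of the 2 untreated 6 hpf arrays on the x axis and of the 2 untreated 9 hpf arrays on the y axis. Red points are the 677 called higher at 9 hpf, blue points the 890 called lower, and dotted lines mark the background level of 5.3. Called probe sets lie on both sides of the diagonal, and those beyond a dotted line have only a bound at that stage.

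Among genes with a symbol other than a clone name and above background on all 4 arrays, the largest increases were in a growth factor, an adhesion molecule, transcription factors and an actin. The midkine gene mdkb, which encodes a heparin-binding growth factor, was at 7.04 and 6.24 at 6 hpf and at 10.44 and 10.72 at 9 hpf. It rose by 3.94 ± 0.46 (SE), or 15.3-fold (adjusted p = 0.0009). The protocadherin gene pcdh19, for an adhesion molecule of the early nervous system, went from 6.44 and 5.71 to 9.98 and 9.96, a rise of 3.9 ± 0.62 (adjusted p = 0.00388). In both genes the lowest 9 hpf array was more than 3 log2 units above the highest 6 hpf array.

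The dorsal neural plate factor gene zic1 was at 5.49 and 5.38 at 6 hpf, next to background, and at 8.77 and 8.88 at 9 hpf, a rise of 3.39 ± 0.29 (adjusted p = 0.000201). The cardiac actin gene actc1a went from 7.45 and 7.4 to 10.72 and 10.72 and rose by 3.3 ± 0.24. Of 22 muscle genes it was the one called (4.55% higher, against 4.37% of all probe sets), and 10 were at or below background at both stages. The other 8 genes of the 12 largest increases rose between 6.5-fold (plod1a) and 12.1-fold (six7). Besides ntd5 they were the transcription factor genes sp8b (3.01 ± 0.48), otx2b (2.91 ± 0.52) and her9 (3.23 ± 0.71), the calpain gene capn8 (3.55 ± 0.72) and the membrane protein gene plp2b (3.54 ± 0.35). Calls that were lost with an array left out are given with those arrays and the adjusted p then reached: plod1a (any array, up to 0.133), otx2b (6 hpf array 2, 0.0503), her9 (6 hpf array 2, 9 hpf array 1, 9 hpf array 2, up to 0.14) and capn8 (6 hpf array 1, 6 hpf array 2, 9 hpf array 2, up to 0.0917). Other settings ended the calls of plod1a and her9 (no intensity trend).

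Among genes with a symbol other than a clone name and above background on all 4 arrays of 6 and 9 hpf, the 12 largest decreases were in transcripts that were also high at 4 hpf. The gene fam49ba was at 10.26 and 10.74 at 4 hpf, at 10.03 and 9.97 at 6 hpf and at 5.89 and 6.3 at 9 hpf, a fall of 15-fold (-3.91 ± 0.22, adjusted p = 4.41e-05). The catalase gene cat, whose enzyme breaks down hydrogen peroxide, went from 9.43 and 9.58 to 6.07 and 6.35 and fell by 3.3 ± 0.22 on the log2 scale. The ubiquitin-conjugating enzyme gene cdc34a went from 9.05 and 9.02 to 5.89 and 5.64 and fell by 3.27 ± 0.29. The stages did not overlap in any of the 12 genes with the largest decreases, which the naming rule required.

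The other 9 of them also stood near background at 9 hpf. The 12 genes spanned 8.98 to 12.6 on the 4 hpf arrays and 5.57 to 6.93 on the 9 hpf arrays. The repressor gene snai2 changed by -3.29 ± 0.53 and the chemokine receptor gene cxcr4b by -3.25 ± 0.43, from 9.11 and 10.46 to 6.21 and 6.86. The annexin gene anxa5b (-3.18 ± 0.38), the RNA-binding protein gene caprin2 (-3.4 ± 0.28), the lipid transfer domain gene stard14 (-3.42 ± 0.33) and ilvbl (-3.42 ± 0.21) completed the set with ccna1, gdf3 and the stress-inducible gene gadd45bb (-3.08 ± 0.57). Left-out arrays ended the call of gadd45bb (6 hpf array 2, 9 hpf array 2, up to 0.0657).

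**Figure D2:**
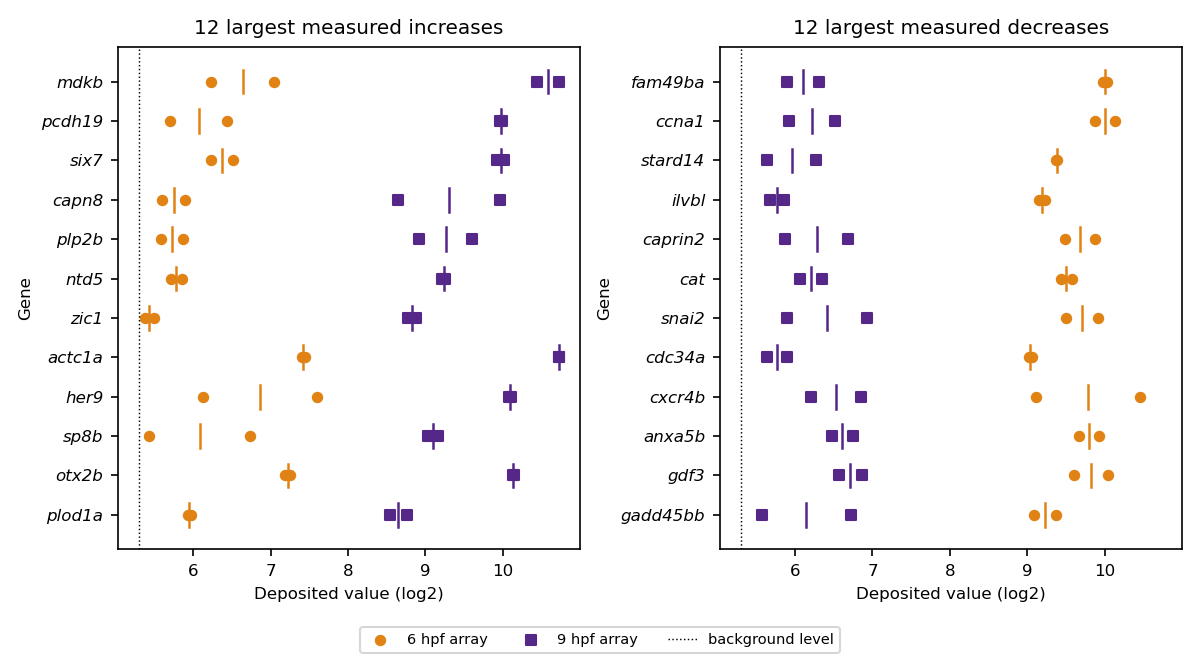
Points are the log2 values on the 2 arrays of 6 hpf (orange circles) and 9 hpf (purple squares) for the 12 largest increases and 12 largest decreases of genes with a symbol other than a clone name and all arrays above background; short lines mark stage means and the dotted line the background level. The stages do not overlap for any of these genes, as the choice of genes required, and the 9 hpf values of the decreases lie near background.

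Other transcripts crossed the background level. The homeobox gene dbx1a, of the spinal cord and hindbrain, went from 5.01 and 4.18 to 9.21 and 9.33 and rose at least 15.6-fold. The plexin-domain gene plxdc2b rose at least 12.5-fold and the orphan nuclear receptor gene nr2f5 at least 12-fold. The bounds of the 12 highest genes of this kind ran from at least 27.5-fold for the homeobox gene meis3 down to at least 9.64-fold for crabp2a, which encodes a retinoic acid binding protein. With arrays left out, the call of crabp2a (any array, up to 0.239) did not hold. Other settings ended that of crabp2a (no intensity trend, replicate block).

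Among genes that dropped below background was lrmp, whose maternal product is needed in the fertilized zebrafish egg for the pronuclei to join. It stood at 10.22 and 10.38 at 4 hpf, at 7.21 and 8.04 at 6 hpf and at 0.17 and 0.55 at 9 hpf, at least 5-fold lower than at 6 hpf (adjusted p = 5.17e-05). The gene gtf3ab, for the factor TFIIIA of 5S RNA transcription, was at least 4.99-fold lower and the ubiquitin-like protein gene isg15 at least 5.26-fold lower. The RNA-binding protein gene msi2b fell at least 6.08-fold and the adaptor gene stap2a at least 8.24-fold. The gene plppr1 was at 7.66 and 7.75 and then at 2.12 and 2.5, at least 5.28-fold lower, while pdcd6 was at least 6.5-fold lower. Left-out arrays ended the call of pdcd6 (6 hpf array 1, 6 hpf array 2, 9 hpf array 2, up to 0.065).

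Of 27 extracellular matrix and integrin genes 8 rose and 0 fell, against 4.37% and 5.74% of all probe sets, and at an unadjusted p under 0.05 the limma counts were 11 and 0. The median change of the list was 0.82 (0.16 to 1.2 over the alternatives) and 0 with genes at background set to their bounds, since 9 of its genes were at or below background at both stages. Fibronectin lines the clefts between forming tissues, and both of its genes rose. The gene fn1a was at 8.57 and 8.38 at 4 hpf, at 8.29 and 8.37 at 6 hpf and at 10.92 and 11.04 at 9 hpf, a rise of 2.65 ± 0.18 or 6.28-fold (adjusted p = 6.02e-05). The gene fn1b rose at least 11.1-fold, from 4.75 and 3.69 to 9.01 and 8.53. Other probe sets of fn1a changed by 0.97 and 0.77 and were not called.

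The same list holds genes that make collagen. The collagen chaperone gene serpinh1b went from 8.35 and 8.92 to 11.45 and 11.1, a rise of 2.64 ± 0.35 (adjusted p = 0.00151), and stood at 0.73 and 0.94 at 4 hpf. The lysyl hydroxylase gene plod1a rose by 2.7 ± 0.67, the basement membrane collagen gene col18a1a by 1.54 ± 0.39 and the integrin gene itgb5 by 1.2 ± 0.24. The matrix protein gene sparc rose at least 1.75-fold. The integrin gene itga6b was called higher with all 4 arrays at or below background. Here itgb5, sparc and itga6b are named after their values were seen. Arrays left out gave 5 to 7 genes of the list higher and 0 lower, and ended the calls of plod1a (any array, up to 0.133), col18a1a (6 hpf array 1, 6 hpf array 2, 9 hpf array 1, up to 0.219) and itgb5 (6 hpf array 2, 9 hpf array 1, up to 0.1). Other settings ended those of plod1a and col18a1a (no intensity trend), col18a1a (only the groups compared) and itga6b (values raised to background).

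Cell adhesion genes moved in both directions, with a median of -0.18. Of 25 genes 3 were higher (12%, against 4.37% of all probe sets) and 3 lower (12%, against 5.74%). Those that rose encode cadherins and protocadherins: pcdh10b at least 7.42-fold, cdh11 at least 5.38-fold and pcdh18a at least 4.08-fold, of which a second probe set was below background and not called. Those that fell encode proteins of epithelial junctions. The claudin gene cldnd went from 8.61 and 8.87 to 5.18 and 5.98 and fell by 3.16 ± 0.4, with a single 9 hpf array exceeding background. It is also counted in the maternal and oocyte list described below. The junction scaffold gene tjp2b fell by 1.23 ± 0.23 and the epithelial adhesion gene epcam by 0.7 ± 0.14. A second epcam probe set, above background on all 4 arrays, changed by -1.59 ± 0.57 and was not called (adjusted p = 0.114). The classical cadherin genes cdh1 and cdh2 changed by -0.41 ± 0.17 and 0.8 ± 0.33 and did not pass the threshold (adjusted p = 0.17 and 0.177). Of these calls, arrays left out ended pcdh10b (6 hpf array 1, 6 hpf array 2, 9 hpf array 2, up to 0.0784), cdh11 (6 hpf array 2, 9 hpf array 1, 9 hpf array 2, up to 0.144), pcdh18a (6 hpf array 2, 0.0652), tjp2b (6 hpf array 2, 9 hpf array 2, up to 0.0643) and epcam (6 hpf array 1, 6 hpf array 2, 9 hpf array 2, up to 0.0869). A change of setting ended those of cdh11 and epcam (no intensity trend) and epcam (all 14 arrays).

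**Figure D3:**
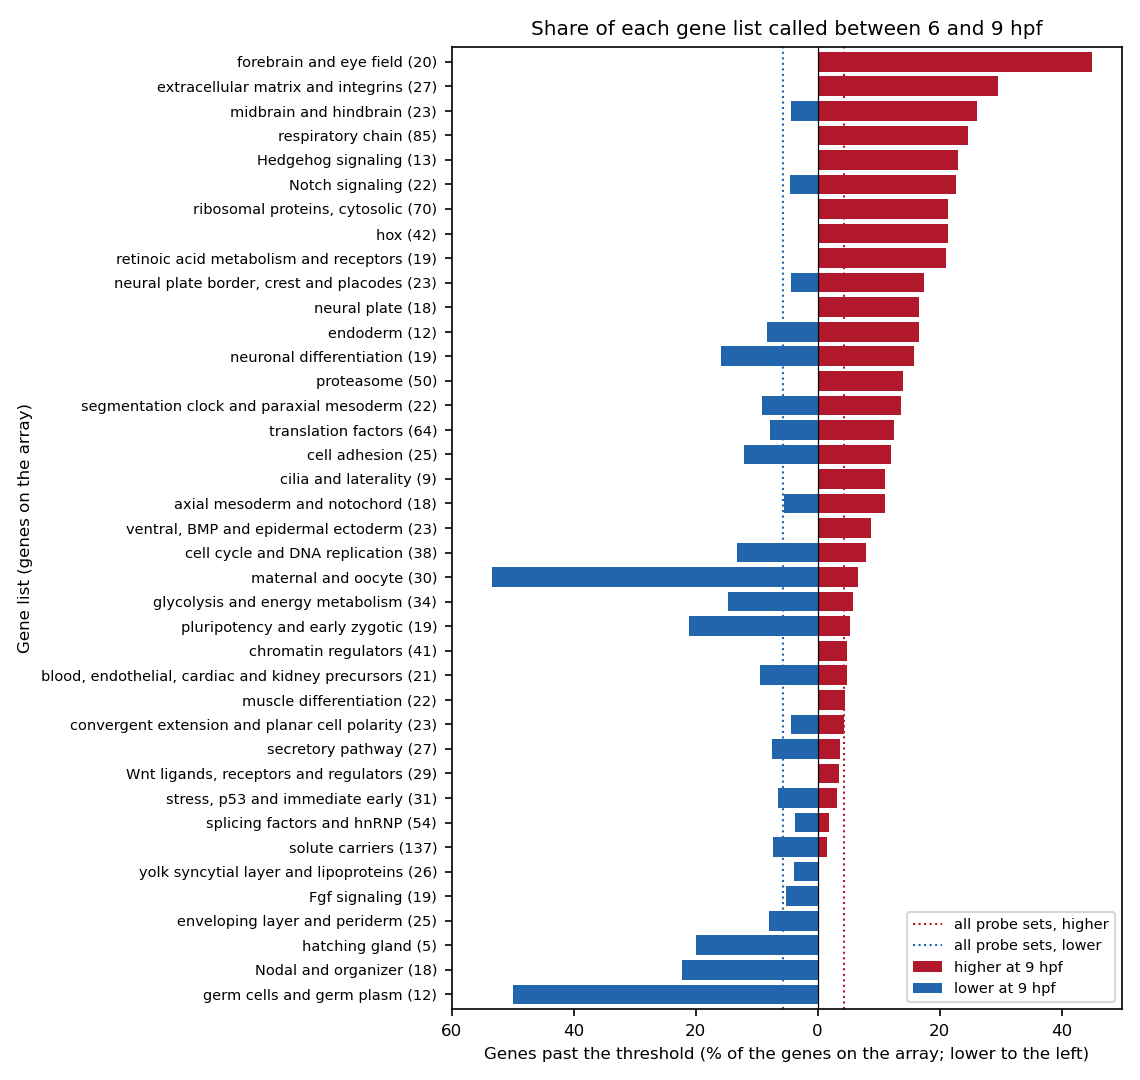
Bars give the percentage of genes of each list that were called higher (red, to the right) or lower (blue, to the left) between 6 and 9 hpf, with the number of genes on the array in brackets, and dotted lines mark the 4.37% and 5.74% of all probe sets. Forebrain and eye field genes reach farthest to the right (9 of 20), and maternal and oocyte genes (16 of 30) and germ cell genes (6 of 12) farthest to the left.

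Of 20 forebrain and eye field genes 9 rose (45%, against 4.37% of all probe sets) and 0 fell (0%, against 5.74%). In limma 10 and 1 had an unadjusted p under 0.05. The median change was 2.26, or 1.23 with genes at background set to their bounds. The head gene otx2b was at 7.19 and 7.25 and then at 10.13 and 10.14, a rise of 2.91 ± 0.52. The homeobox gene six7 went from 6.51 and 6.24 to 10.02 and 9.92 (3.6 ± 0.39, adjusted p = 0.000671), and its second probe set was below background at both stages and not called. Of 23 midbrain and hindbrain genes 6 rose (26.1%) and 1 fell (4.35%). Of 42 hox genes 9 rose (21.4%) and 0 fell (0%), with 16 and 0 at an unadjusted p under 0.05 in limma. Their median change was 1.42, or 0 with genes at background set to their bounds. Only 1 of them was above background on both 6 hpf arrays. With values raised to background the calls of hoxc5a, hoxb6b, hoxb5a and hoxc6b ended, with changes of 0.01, 0.17, 0.79 and 1.24. Calls that any left-out array ended included those of hoxb3a, hoxb5a, hoxb6b, hoxb9a and nkx2.1. The pan-neural genes sox2 and sox3, above background on all 4 arrays, changed by 0.14 ± 0.52 and -0.45 ± 0.23 and did not pass the threshold. Left-out arrays gave 4 to 5 forebrain genes, 4 to 6 midbrain and hindbrain genes and 4 to 5 hox genes higher, and ended the call of otx2b (6 hpf array 2, 0.0503).

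The border factor genes msx1a, msx1b and msx3, which can answer to BMP signals, rose by 2.06 ± 0.34, 2.28 ± 0.4 and 2.5 ± 0.47. A second msx3 probe set, above background on all 4 arrays, changed by 1.3 ± 0.5 and was not called (adjusted p = 0.145). Another lay below background at both stages and was not called. The level of msx1a went from 6.33 and 6.36 to 8.32 and 8.47. The placode gene dlx3b rose by 4.24 ± 0.81, with a single 6 hpf array exceeding background. Of 23 border, crest and placode genes these 4 rose (17.4%, against 4.37% of all probe sets) and snai2 fell (4.35%, against 5.74%). As described above, snai2 was also high at 4 hpf. A second snai2 probe set was called lower as well, and another changed by -2.22 ± 0.82 and was not called (adjusted p = 0.127). Left-out arrays ended the calls of msx1b (6 hpf array 2, 0.0627), msx3 (6 hpf array 1, 9 hpf array 2, up to 0.0754) and dlx3b (6 hpf array 2, 9 hpf array 2, up to 0.0825).

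Of 23 ventral, BMP and epidermal ectoderm genes 2 rose (8.7%, against 4.37% of all probe sets) and 0 fell (0%, against 5.74%). In limma 3 and 1 had an unadjusted p under 0.05. Over the alternatives the median of these genes lay between -0.11 and 0.08. Among them the gene tp63, a master regulator of epidermal progenitors, was at 5.17 and 6.03 at 6 hpf and at 10.02 and 10.06 at 9 hpf. It rose by 4.44 ± 0.49 (adjusted p = 0.000662), with a single 6 hpf array exceeding background, and a second tp63 probe set changed by 2.3 and was not called. Of 25 enveloping layer genes 0 rose (0%, against 4.37% of all probe sets) and 2 fell (8%, against 5.74%). The limma counts were 3 and 2 at an unadjusted p under 0.05. Those called lower were the protease inhibitor gene spint1a, by 1.08 ± 0.21 from 10 and 9.95 to 9.03 and 8.75, and epcam. Left-out arrays ended the call of spint1a (6 hpf array 1, 6 hpf array 2, 9 hpf array 2, up to 0.0627).

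Of 18 Nodal and organizer genes 0 rose (0%, against 4.37% of all probe sets) and 4 fell (22.2%, against 5.74%). In limma 1 and 5 had an unadjusted p under 0.05. The transcription factor gene foxh1, which carries the Nodal signal to its targets, went from 10.49 and 10.67 to 8.95 and 9.61 and fell by 1.3 ± 0.23. The type I receptor gene acvr1ba fell by 1.48 ± 0.34. The mesendoderm factor gene mixl1 fell by 3.24 ± 0.77, with a single 9 hpf array exceeding background. The organizer gene dharma, named after its values were seen, was called lower with all 4 arrays at or below background. With an array left out 0 to 2 of the list fell, and the calls ended were foxh1 (6 hpf array 2, 0.0633), acvr1ba (any array, up to 0.152), mixl1 (any array, up to 0.135) and dharma (6 hpf array 1, 6 hpf array 2, 9 hpf array 1, up to 0.209). Calls lost under another setting were those of acvr1ba and dharma (only the groups compared), acvr1ba, mixl1 and dharma (no intensity trend) and dharma (all 14 arrays, values raised to background, a pseudocount of 32).

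Of 13 Hedgehog genes 3 rose (23.1%, against 4.37% of all probe sets) and 0 fell (0%, against 5.74%). The limma counts were 4 and 0 at an unadjusted p under 0.05. The ligand gene shhb rose at least 4.92-fold, from 2.75 and 4.66 to 7.76 and 7.44. The gene hhip, for a membrane protein that binds and restrains the ligand, rose by 2.8 ± 0.58, with a single 6 hpf array exceeding background. The target gene olig2 of motor neuron progenitors rose at least 5.42-fold. The second ligand gene, shha, was at 7.29 and 7.29 and then at 7.95 and 8.43 and did not pass the threshold (adjusted p = 0.15). Each of the 3 calls ended with an array left out, which also reduced the calls over all probe sets. The arrays were 9 hpf array 1 for shhb, and 6 hpf array 2 and 9 hpf array 1 for olig2. For hhip they were 6 hpf array 1, 6 hpf array 2 and 9 hpf array 1.

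Of 22 Notch genes 5 rose (22.7%, against 4.37% of all probe sets) and 1 fell (4.55%, against 5.74%), with a median of 0.7. The ligand gene dla went from 6.89 and 7.01 to 9.43 and 9.4 and rose by 2.46 ± 0.58, and the ligand gene jag2b by 1.14 ± 0.29. The ligand gene dld went from 9.61 and 9.82 to 8.86 and 9.08 and fell by 0.75 ± 0.19. The repressor gene her6, which Notch signals can switch on, rose by 1.61 ± 0.38. Leaving out an array gave 0 to 1 higher and 0 lower, and ended the calls of dla (any array, up to 0.117), jag2b (any array, up to 0.185), dld (any array, up to 0.198) and her6 (any array, up to 0.143). Under other settings the calls lost were those of dla, dld and her6 (no intensity trend) and jag2b and dld (only the groups compared).

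The Wnt list had 1 gene higher (3.45%, against 4.37% of all probe sets) and 0 lower of 29 (6 and 1 at an unadjusted p under 0.05 in limma). It was the receptor gene fzd10, which went from 6.5 and 6.75 to 8.94 and 8.96 and rose by 2.32 ± 0.32 (adjusted p = 0.00188). The Fgf list had 0 higher and 1 lower (5.26%, against 5.74%) of 19 (2 and 1 at an unadjusted p under 0.05). The gene was dusp4, for a phosphatase that switches off MAP kinases, which fell by 1.44 ± 0.35, and left-out arrays ended the call of dusp4 (6 hpf array 2, 9 hpf array 1, 9 hpf array 2, up to 0.202). So did another setting for dusp4 (only the groups compared).

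Of 30 maternal and oocyte genes 16 fell (53.3%, against 5.74% of all probe sets) and 2 rose (6.67%, against 4.37%). Their median was -1.43, against 0.01 over all probe sets. The oocyte linker histone gene h1m was at 13.22 and 12.75 at 4 hpf, at 10.1 and 10.22 at 6 hpf and at 6.72 and 7.88 at 9 hpf, a change of -2.86 ± 0.33 (adjusted p = 0.000845). The genes that rose, named after their values were seen, were the RNA-binding protein genes igf2bp3 (1.0 ± 0.22) and elavl1b (0.6 ± 0.15). Leaving out an array gave 6 to 17 of the list lower, and ended the calls of igf2bp3 (6 hpf array 1, 9 hpf array 1, 9 hpf array 2, up to 0.133) and elavl1b (any array, up to 0.15). Processing alternatives ended those of igf2bp3 (only the groups compared), igf2bp3 and elavl1b (no intensity trend) and elavl1b (common median). Some falls were lost too, in genes named after their values were seen. The calls of btg4, buc and mos ended with values raised to background and with a pseudocount of 32. Left-out arrays ended those of eomesa (any array), fbxo5 (6 hpf array 1, 6 hpf array 2, 9 hpf array 1) and pabpc1l (6 hpf array 2).

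Of 12 germ cell genes 6 fell (50%, against 5.74% of all probe sets) and 0 rose (0%, against 4.37%). Those that fell include h1m, which is counted in the maternal and oocyte list as well. The limma counts were 7 and 0 at an unadjusted p under 0.05. The helicase gene ddx4, also known as vasa, was at 9.8 and 9.85 at 4 hpf, at 9.84 and 10.03 at 6 hpf and at 7.4 and 8.07 at 9 hpf, and fell by 2.2 ± 0.23. The gene piwil1, whose product works with small RNAs against transposons in the germ line, was at least 8.94-fold lower, and its relative piwil2 fell by 2.1 ± 0.39, with a single 9 hpf array exceeding background. The germ plasm gene dnd1, at 8.43 and 7.84 and then at 7.7 and 8.06, did not pass the threshold (-0.26 ± 0.28). Arrays left out gave 4 to 6 of the list lower and ended the call of piwil2 (6 hpf array 2, 0.0589). Over all alternatives the median of the list lay between -2.06 and -0.94. Another setting ended the call of piwil2 (only the groups compared).

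Of 19 pluripotency and early zygotic genes 4 fell (21.1%, against 5.74% of all probe sets) and 1 rose (5.26%, against 4.37%). Of those described here, nanog and pou5f3 also belong to the maternal and oocyte list and are counted there. The gene nanog went from 10.39 and 10.71 to 7.78 and 8.16 and fell by 2.58 ± 0.24, and pou5f3, its partner in genome activation, fell by 0.92 ± 0.16. The zinc finger gene klf2a went from 7.11 and 7.25 to 9.7 and 9.95 and rose by 2.65 ± 0.32, or 6.27-fold (adjusted p = 0.0011). Its 4 hpf values, 9.19 and 10.15, were also above those of 6 hpf. A call ended by left-out arrays was that of pou5f3 (6 hpf array 2, 0.064), and other settings ended that of pou5f3 (all 14 arrays, no intensity trend).

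A dip at 6 hpf was seen in the DNA methyltransferase gene dnmt1 too, which was at 11.62 and 10.93 at 4 hpf, at 8.8 and 8.84 at 6 hpf and at 9.88 and 9.91 at 9 hpf. The checkpoint kinase gene chek1 was at 9.81 and 9.02, then at 7.2 and 7.74 and then at 8.76 and 8.64. Between 6 and 9 hpf dnmt1 rose by 1.07 ± 0.26 and chek1 by 1.23 ± 0.3. Left-out arrays ended both, dnmt1 (any array, up to 0.125) and chek1 (any array, up to 0.17), and so did other settings for dnmt1 and chek1 (no intensity trend).

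Of 70 cytosolic ribosomal protein genes 15 rose (21.4%, against 4.37% of all probe sets) and 0 fell (0%, against 5.74%). Their median change was 0.34, and at an unadjusted p under 0.05 the limma counts were 50 and 0. In 69 of the 70 both 9 hpf arrays lay above both 6 hpf arrays, which held for 28% of all probe sets, while the reverse held for 25.9% and any separation for 53.9%. The large subunit gene rpl5a was at 8.91 and 8.83 at 4 hpf, at 10.86 and 10.8 at 6 hpf and at 11.66 and 11.54 at 9 hpf, a rise of 0.77 ± 0.13 (adjusted p = 0.00499). Other large subunit genes that rose were rpl22l1 (0.86 ± 0.15), rplp2 (0.67 ± 0.15) and rpl36a (0.66 ± 0.15). Of 44 large subunit genes 12 rose, and of 26 small subunit genes 3. With arrays left out 1 to 5 of the list rose, and the calls ended were those of rpl22l1 (6 hpf array 2, 0.0506), rplp2 (any array, up to 0.141) and rpl36a (6 hpf array 1, 6 hpf array 2, 9 hpf array 1, up to 0.154). Further settings ended those of rpl5a, rplp2 and rpl36a (no intensity trend). Scaling of the arrays mattered too. Calls lost both with quantile normalization and with a common median included rpl13a, rpl26, rpl27a, rpl34, rpl35a and rpl37, named after their values were seen.

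Respiratory chain genes had 21 higher (24.7%, against 4.37% of all probe sets) and 0 lower (0%, against 5.74%) of 85. Their median was 0.44, and 39 and 2 had an unadjusted p under 0.05 in limma. By complex, 7 of 39 complex I genes, 2 of 7 complex III genes, 4 of 14 cytochrome c oxidase genes and 8 of 18 ATP synthase genes rose, and the 7 complex II genes had a median of -0.09. The complex I gene ndufs4 went from 7.47 and 7.15 to 8.75 and 8.72 and rose by 1.42 ± 0.28. The cytochrome c oxidase gene cox6c rose by 0.95 ± 0.22 and the complex III gene uqcrc2a by 1.0 ± 0.23. Left-out arrays gave 1 to 4 of the list higher and ended the calls of ndufs4 (6 hpf array 2, 9 hpf array 1, 9 hpf array 2, up to 0.0818), cox6c (any array, up to 0.113) and uqcrc2a (6 hpf array 2, 9 hpf array 1, 9 hpf array 2, up to 0.145). Lost under another setting were cox6c (no intensity trend) and uqcrc2a (only the groups compared). Both quantile normalization and a common median ended further calls, among them atp5f1c, atp5f1d, atp5md, atp5pf and cox5aa, named after their values were seen.

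Proteasome genes had 7 higher (14%, against 4.37% of all probe sets) and 0 lower (0%, against 5.74%) of 50. Their median was 0.25, and 15 and 1 had an unadjusted p under 0.05 in limma. The only calls that held in each alternative were those of psmd9 and psmc6. The assembly factor gene psmd9 went from 7.81 and 7.73 to 9.44 and 9.11 (1.5 ± 0.22). The gene psmc6, for an ATPase of the regulatory particle, rose by 0.85 ± 0.14. The calls of psma1, psmb1, psmb2, psmd3 and psmd13 ended without the intensity trend and with any array left out. Those of psmb2 and psmd3 also ended with quantile normalization and with a common median. Here psmb1 and psmb2 are named after their values were seen. With arrays left out 2 to 3 rose. Without the intensity trend 1 ribosomal, 2 respiratory chain and 2 proteasome genes rose. The medians of the 3 lists kept their sign, from 0.27 to 0.37, from 0.4 to 0.45 and from 0.2 to 0.32 over all alternatives. Several alternatives alter the test and not the change, and all draw on the same 4 arrays. The kept sign is therefore not a separate test of these rises.

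Of 34 glycolysis and energy genes 5 fell (14.7%, against 5.74% of all probe sets) and 2 rose (5.88%, against 4.37%), with a median of -0.31. The pyruvate kinase gene pkma was at 10.08 and 9.72 at 4 hpf, at 8.06 and 8.38 at 6 hpf and at 6.39 and 6.63 at 9 hpf, a change of -1.71 ± 0.27 (adjusted p = 0.00379). The phosphoglycerate mutase gene pgam1b fell by 1.6 ± 0.33, the triose phosphate isomerase gene tpi1b by 1.07 ± 0.29 and the creatine kinase gene ckbb by 1.06 ± 0.17. The other isomerase gene, tpi1a, was at least 2.66-fold lower. The genes that rose, named after their values were seen, act in the mitochondrion: pdhb of pyruvate dehydrogenase (0.88 ± 0.24) and idh3a of isocitrate dehydrogenase (0.86 ± 0.22). The calls that left-out arrays ended were those of pgam1b (6 hpf array 1, 6 hpf array 2, up to 0.0812), tpi1b (6 hpf array 1, 6 hpf array 2, 9 hpf array 2, up to 0.238), tpi1a (6 hpf array 1, 6 hpf array 2, 9 hpf array 1, up to 0.196), pdhb (any array, up to 0.192) and idh3a (any array, up to 0.198). Alternatives in the fit or scaling ended those of pgam1b, tpi1b, tpi1a and idh3a (only the groups compared), tpi1b, tpi1a, pdhb and idh3a (no intensity trend), tpi1b and pdhb (replicate block), pdhb (quantile normalization) and pdhb and idh3a (common median).

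**Figure D4:**
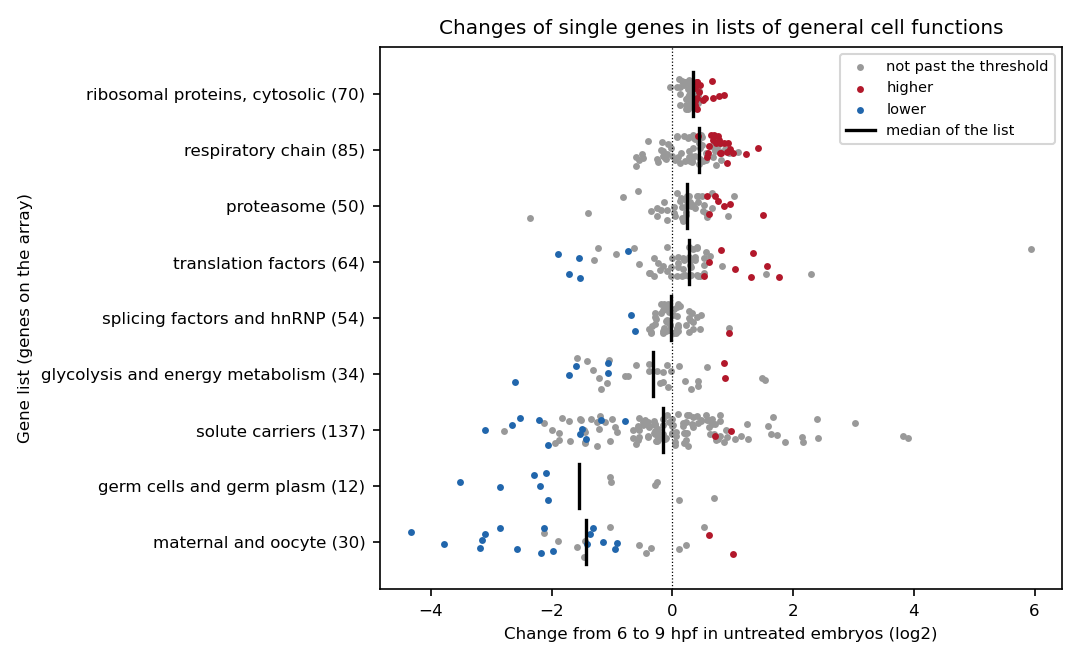
Each point is a gene, placed by its change from 6 to 9 hpf in untreated embryos (log2), and black bars are list medians. Ribosomal protein genes form a narrow group above 0 with a median of 0.34, respiratory chain genes have a median of 0.44, and the maternal and germ cell lists lie mostly below 0 with medians of -1.43 and -1.55.

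Of 64 translation factor genes 8 rose (12.5%, against 4.37% of all probe sets) and 5 fell (7.81%, against 5.74%). Of 54 splicing factor genes 1 rose (1.85%) and 2 fell (3.7%), both below the shares of all probe sets, with a median of -0.01. The initiation factor gene eif2s1b went from 7.31 and 7.89 to 9.33 and 9.38 and rose by 1.76 ± 0.27. The cap-binding protein gene eif4e1b, expressed mainly in germ cells and early embryos, went from 9.39 and 9.85 to 7.63 and 8.52 and fell by 1.55 ± 0.29. Of 38 replication and cell cycle genes 3 rose (7.89%) and 5 fell (13.2%). The replicative helicase genes mcm2 and mcm5 rose by 1.12 ± 0.23 and 0.82 ± 0.18, while the S phase cyclin gene ccne1 fell by 1.06 ± 0.18. Arrays left out ended the calls of eif4e1b (6 hpf array 2, 9 hpf array 1, up to 0.0858), mcm2 (6 hpf array 1, 9 hpf array 2, up to 0.0943), mcm5 (6 hpf array 1, 9 hpf array 1, 9 hpf array 2, up to 0.138) and ccne1 (6 hpf array 2, 0.0602). With other settings the calls ended were those of mcm2 and mcm5 (no intensity trend).

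Among 137 solute carrier genes 10 fell (7.3%, against 5.74% of all probe sets) and 2 rose (1.46%, against 4.37%), and with an array left out 6 to 9 fell and 0 to 2 rose. Counted by gene, 605 of 8793 fell, so the share of the list that fell was close to that of all genes. The monocarboxylate transporter gene slc16a3b went from 8.85 and 9.51 to 6.39 and 6.92 and fell by 2.52 ± 0.28. The mitochondrial carrier gene slc25a11 fell by 2.06 ± 0.22, the fatty acid transporter gene slc27a1a by 2.21 ± 0.36 and the amino acid transporter gene slc7a1b by 1.53 ± 0.26.

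Zebrafish keep many duplicate genes. Of 662 pairs of genes on the array whose symbols differ only in a final a or b, 487 had neither member called. In 7 pairs both members were higher, in 7 both were lower and 3 were called in opposite directions, while 158 had 1 member called. Over all 8793 genes, 457 were called higher and 605 lower. Whether opposite calls were more frequent than in pairs of unrelated genes was not tested. Some such symbols name different subunits rather than duplicates, and the genes below were chosen after their values were seen. The sodium pump subunit gene atp1b3a went from 8.09 and 7.83 to 9.59 and 9.41 (1.54 ± 0.3, adjusted p = 0.0095), and atp1b3b from 9.97 and 10.11 to 7.58 and 7.64 (-2.43 ± 0.14, adjusted p = 4.41e-05). The initiation factor gene eif4g3b rose by 1.57 ± 0.26 and eif4g3a fell by 1.53 ± 0.34. The coenzyme Q binding protein gene coq10a rose by 1.74 ± 0.29 and coq10b fell by 1.07 ± 0.2. Arrays left out ended the calls of atp1b3a (6 hpf array 2, 9 hpf array 1, up to 0.0772), eif4g3a (6 hpf array 2, 9 hpf array 1, 9 hpf array 2, up to 0.137) and coq10b (6 hpf array 1, 9 hpf array 1, up to 0.0634). Another setting ended that of eif4g3a (only the groups compared).

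RA-treated embryos gave the same stages on arrays of their own, but both comparisons used 1 estimate of spread per probe set. Untreated 9 hpf arrays 1 and 2 correlated with RA-treated 9 hpf arrays 2 and 1 at 0.959 and 0.944, and with each other at 0.929. The calls that the comparisons share are therefore not an independent repeat. In them 2485 probe sets were called (16%), 1050 higher (6.77%) and 1435 lower (9.26%). Of the 677 probe sets higher in untreated embryos 482 were also called higher with RA, 71.2% of the untreated calls and 45.9% of the RA calls. Of the 890 lower 784 were also called lower, 88.1% and 54.6%. The median changes of these 677 and 890 probe sets with RA were 1.33 and -1.71. A single probe set was called in opposite directions, and it lay at or below background in untreated embryos. The gene fn1a was at 7.8 and 7.78 and then at 11.01 and 10.77 with RA, a rise of 3.1 ± 0.18.

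Genes called higher in untreated embryos and not called with RA included some that were already high in RA-treated embryos at 6 hpf. The gene zic1 was at 8.87 and 8.68 with RA at 6 hpf and at 9.58 and 9.46 at 9 hpf, a change of 0.75 ± 0.29. The eye field gene rx3 was at 8.03 and 8.29 and then at 8.61 and 8.41 with RA, and at 3.82 and 4.12 and then at 9.11 and 8.65 without. The midbrain boundary gene her5 was at 8.29 and 8.22 and then at 7.66 and 8.26 with RA, and at 7.6 and 7.18 and then at 9.47 and 9.24 without, where it rose by 1.96 ± 0.4. In the test of the difference between treatments none of these 3 passed the threshold (adjusted p = 0.21 for zic1, 0.21 for rx3 and 0.809 for her5). The untreated call that left-out arrays ended was that of her5 (6 hpf array 2, 9 hpf array 1, 9 hpf array 2, up to 0.102).

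A single probe set of 15502 (0.00645%), higher with RA, was called for a difference in the 6 to 9 hpf change between treatments, with 0 (0%) lower, and 544 (3.51%) had an unadjusted p under 0.05. It belongs to her3, a repressor gene of the early neural plate. In untreated embryos her3 was at 9.77 and 9.2 at 6 hpf and at 9.44 and 9.3 at 9 hpf, and the stages overlapped. In RA-treated embryos it was at 0.35 and 0.98 at 6 hpf, below background, and at 8.34 and 8.71 at 9 hpf. The change was 7.97 ± 0.55 greater with RA (adjusted p = 0.000601), or 3.33 with values below background raised to it (adjusted p = 0.0273). A second her3 probe set lay at or below background in untreated embryos and was not called, with a difference of 1.2 ± 0.92.

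**Figure D5:**
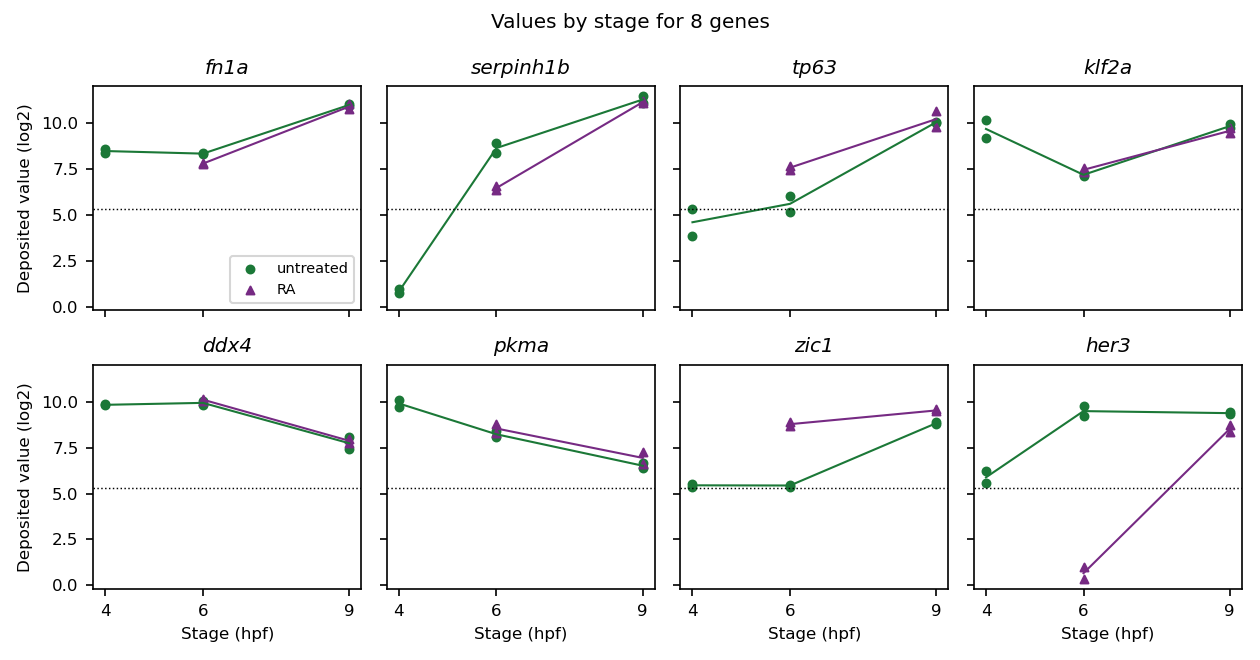
Points are single arrays and lines join stage means for 8 genes, with the stage in hpf on the x axis and the log2 value on the y axis, for untreated embryos (green circles) and RA-treated embryos (purple triangles, 6 and 9 hpf), and the dotted line is the background level. The plot shows the rise of fn1a, serpinh1b and tp63, the dip of klf2a at 6 hpf and the falls of ddx4 and pkma. It also shows the 6 hpf levels of zic1 and her3 with and without RA, whose difference at that stage was not tested.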

How the data were processed

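The authors deposited log2 expression values per probe set from 14 Affymetrix Zebrafish arrays. They corrected background by mas5 and normalized by invariantset in the R package affy 2.15.2; the summary of probes into probe sets is not given in the sources used here, and the log base was read from the values. No values were renormalized except in the alternatives. The 115 control probe sets were left out of 15617. Of 15502 tested, 10795 carry a single gene in the supplied tables (8793 genes), 135 several and 4572 none. A gene with several probe sets was represented by that with the highest mean over the embryo arrays; for copb2, counted in the secretory list, another probe set was called in the opposite direction.

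Group means were fitted to the 12 embryo arrays, which share 1 estimate of the spread, with limma 3.58.1 in R 4.3.3 (empirical Bayes with intensity trend, two-sided, Benjamini-Hochberg over 15502 probe sets, adjusted p under 0.05). The contrasts were 9 minus 6 hpf without and with RA, and their difference. The fit was also run on simulated arrays with independent noise and known changes added. That run checked the code and did not cover effects shared between arrays. The background level of 5.30 is the 95th percentile of 238 values of 17 tag controls. The number of arrays limits the precision: replicates differed by a median of 0.192 and 0.219 above a level of 7, and by 0.855 and 0.852 at or below background.

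The 39 gene lists and the comparison were chosen with earlier results of these data known. Genes eligible to be named, not all of which are described, were the 12 highest and lowest measured changes and bounds among calls whose stages do not overlap, up to 5 called genes per list, called hox genes and genes with a called difference; symbols that are only clone or locus codes were not named. Other genes are named for checks or, as marked, after their values were seen. Alternatives were the groups compared alone, all 14 arrays, no intensity trend, quantile normalization, a common median, values raised to background, a pseudocount of 32 on the linear scale, a filter on the mean, the replicate number as a block, and each array left out; calls of the brighter stage above background and a crossed block were added after seeing the data.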

Additional observations from a re-analysis of the deposited data

Results flagged for a closer look

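The change of her3 between 6 and 9 hpf differed between RA-treated and untreated embryos by 7.97 ± 0.55 (SE) on the log2 scale, by the test of the difference itself in limma (adjusted p = 0.000601). All 4 untreated arrays of 6 and 9 hpf lay between 9.20 and 9.77, while the RA-treated arrays lay at 0.35 and 0.98 at 6 hpf and at 8.34 and 8.71 at 9 hpf. The RA-treated 6 hpf values were below background, so the size of the difference is not measured. With values raised to background it was 3.33. The difference passed the threshold in all alternatives that were run, with an adjusted p of 0.000377 to 0.0273. A second her3 probe set, at or below background at both stages with and without RA, had a difference of 1.2 ± 0.92 and was not called. Groups of 2 arrays are too small for a test of single outlying arrays.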

How the results depend on the processing

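The 1567 calls became 574 to 903 with an untreated array left out (185 to 288 higher, 313 to 629 lower), and 448 were higher without the intensity trend. In RA-treated embryos the 2485 calls became 945 to 1628 with an array left out (361 to 602 higher, 584 to 1049 lower). A stage then rests on 1 array, assumed to vary like the other groups. The other settings stayed within 1.5 times: only the groups compared called 609 higher and 626 lower, a pseudocount of 32 called 953 and 917, and calls with the brighter stage above background were 609 and 824. The difference between treatments, with 1 call, had 9 with only the groups compared (8 lower), 2 without the trend (1 lower), 17 with values raised to background (4 higher, 13 lower) and 4 with a pseudocount of 32 (3 lower).

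Of 154 called genes that the naming rule covers, some not described above, 67 were called under every alternative that tested them, and 0 changed sign. The sign could not change with an array left out, since the stages of all called probe sets did not overlap. Several other alternatives alter the test and not the change, so the kept sign is no sign of stability. Deviations of untreated arrays with the same replicate number correlated at -0.072 between stages. With 2 arrays per stage this cannot show whether a number marks a shared clutch or day. The replicate block called 602 higher and 842 lower, and 6 of these genes were lost under it. For the difference, untreated and RA-treated 9 hpf arrays of the same number correlated at -0.382, and the crossed block gave 1 call. Of probe sets, 4634 were at or below background on all 4 arrays, where a change cannot be sized.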
